A study of Mus musculus with 14 samples.

Results

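Thymus RNA of mice given 17β-estradiol was compared with that of mice fed genistein, at the same days of treatment. The comparison took the 12 of 14 arrays whose titles name one of these treatments, 6 for estradiol and 6 for genistein, with 2 arrays of each treatment on each of days 2, 3 and 6. The other 2 arrays, of untreated thymus, were not used. All mice were female C57BL/6, an inbred strain, ovariectomised at 26 days of age, kept on the purified AIN-93G diet without phytoestrogens and treated from 30 days of age. Estradiol was injected under the skin each day as 125 ng in 0.02 ml of corn oil. Genistein was mixed into the diet at 1500 ppm and eaten freely. Each group of 6 animals gave 2 pools of RNA from 3 animals, described in the labels as independent biological replicates, so a p-value here measures the spread between pools. The labels mention injection and corn oil for the estradiol mice only. Hormone, dose, route, oil and handling therefore cannot be told apart in any difference given here.

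The thymus is the organ in which T cells mature, and most of its cells are immature thymocytes held in a framework of epithelial cells, with macrophages, dendritic cells, fibroblasts, vessels and some fat. Estradiol acts mainly through the nuclear estrogen receptors, and high estrogen is known to shrink the thymus through loss of immature thymocytes. Genistein is a soy isoflavone that binds estrogen receptors, with preference for the beta form, and also inhibits tyrosine kinases.

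Of 22690 probe sets 13575 passed the filter on dim signals, and these represent 8217 genes. With 2 arrays in a group, it is the number of arrays that sets the precision. The deposited 2%-trimmed mean signal was 150.04 on 9 of the 12 arrays, but 223 on replicate 2 of estradiol day 2 and 300.3 and 335 on the estradiol day 3 arrays. Every array was brought to 150.04, and results are also given below without those 3 arrays. RNA integrity was compared through Gapdh, whose 3' probe set gains on its 5' one in degraded RNA, and this ratio averaged 0.975 with estradiol and 1.07 with genistein (exact two-sided permutation test within days, p = 0.463, n = 6 and 6). The highest ratio, 1.503, was that of genistein day 6 replicate 1, against 0.950 and 0.945 on the estradiol day 6 arrays. Thymocyte genes were bright. Rag1, which cuts the antigen receptor genes, had a mean signal of 2418 with estradiol and 2391 with genistein, and its difference of 0.01 ± 0.096 on the log2 scale did not pass the test (adjusted p = 0.962). Probe sets for the receptors Esr1, Esr2 and Pgr never exceeded 32.7 on any array and were too dim to test.

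Over the mean of the 3 days, 203 of 13575 probe sets (1.5%) passed an adjusted p under 0.05 in limma, 163 higher with estradiol (1.2%) and 40 lower (0.295%). An unadjusted p under 0.05 in limma, in either direction, was held by 2491 of the 13575. Counts of list genes at that unadjusted threshold, given below, are to be read against this share. Counting each gene by its brightest probe set, 101 of 8217 genes (1.23%) rose and 23 (0.28%) fell. Genes of fat cells and lipid handling, cortical thymic epithelium, macrophages and neutrophil granules were among those that rose. All 6 estradiol arrays lay above all 6 genistein arrays for 1.08% of the 8217 genes and below them for 0.438%. Both arrays lay above both of the other treatment on each of the 3 days for 3.1%, and below for 2.29%. Most changes were small, since 20 of the 203 called probe sets differed by more than 2-fold. Differences are estradiol minus genistein on the log2(signal + 16) scale, with the SE of limma, and the added 16 understates the change of dim genes. Signals given below as 3 values are the lowest, the median and the highest of the 6 arrays of a treatment.

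**Figure D1:**
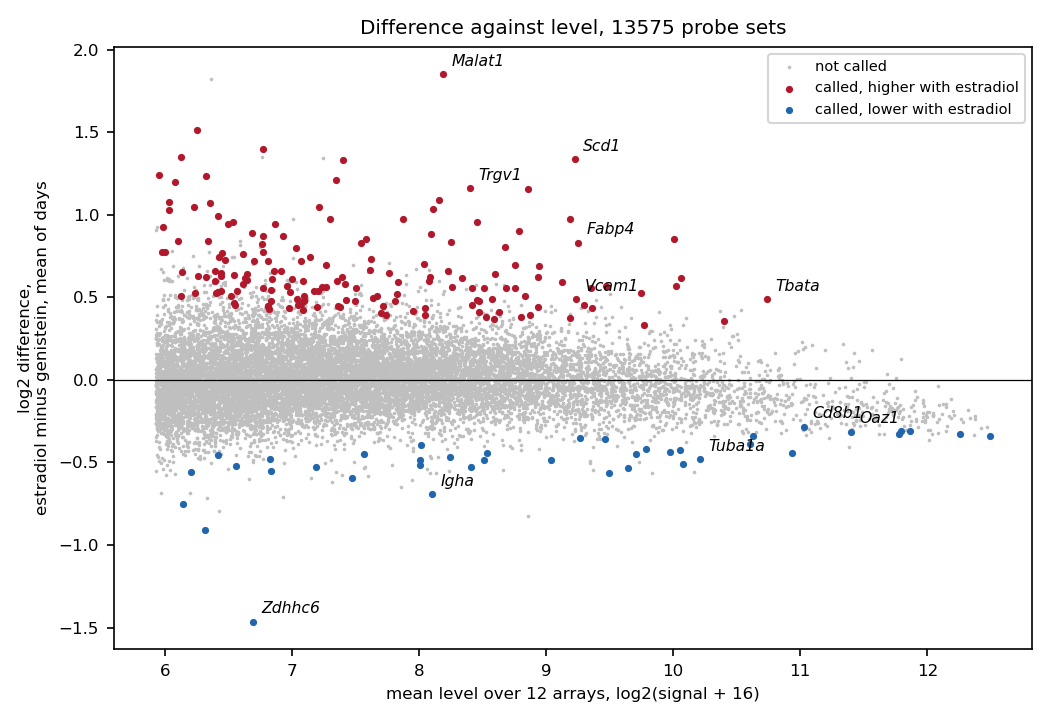
Difference between estradiol and genistein arrays, mean of days (vertical, log2), against mean level over the 12 arrays (horizontal, log2(signal + 16)), 1 point per probe set. The 163 probe sets called higher (red) lie at low and middle levels, while of 227 probe sets with a mean level of 11 or more 0 were called higher and 7 lower (blue).

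The difference depended on the level of the probe set. Among the 227 probe sets with a mean level of 11 or more, 18 (7.93%) were higher with estradiol, and their median difference was -0.19, against 54.7% and 0.02 among the 6567 with a level of 7 to 9. On the single days the median of the bright probe sets was -0.02 on day 2, -0.25 on day 3 and -0.28 on day 6. After quantile normalization it was -0.01, and 4 of the 227 were called higher and 0 lower. That method gives every array the same distribution, so a median near 0 was largely fixed in advance. It cannot tell a shift of scale from a difference between treatments in bright genes. Among the 1681 probe sets with a level of 9 to 11, 39.1% were higher with estradiol, and 47.7% after quantile normalization. Called falls whose arrays were separated on each day, and that of Rps6, are given below with their value under that normalization too. Medians of gene lists, uncalled differences and the falls of Ccr9 and Zdhhc6 are given only as scaled here, so the part of level in them was not tested.

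**Figure D2:**
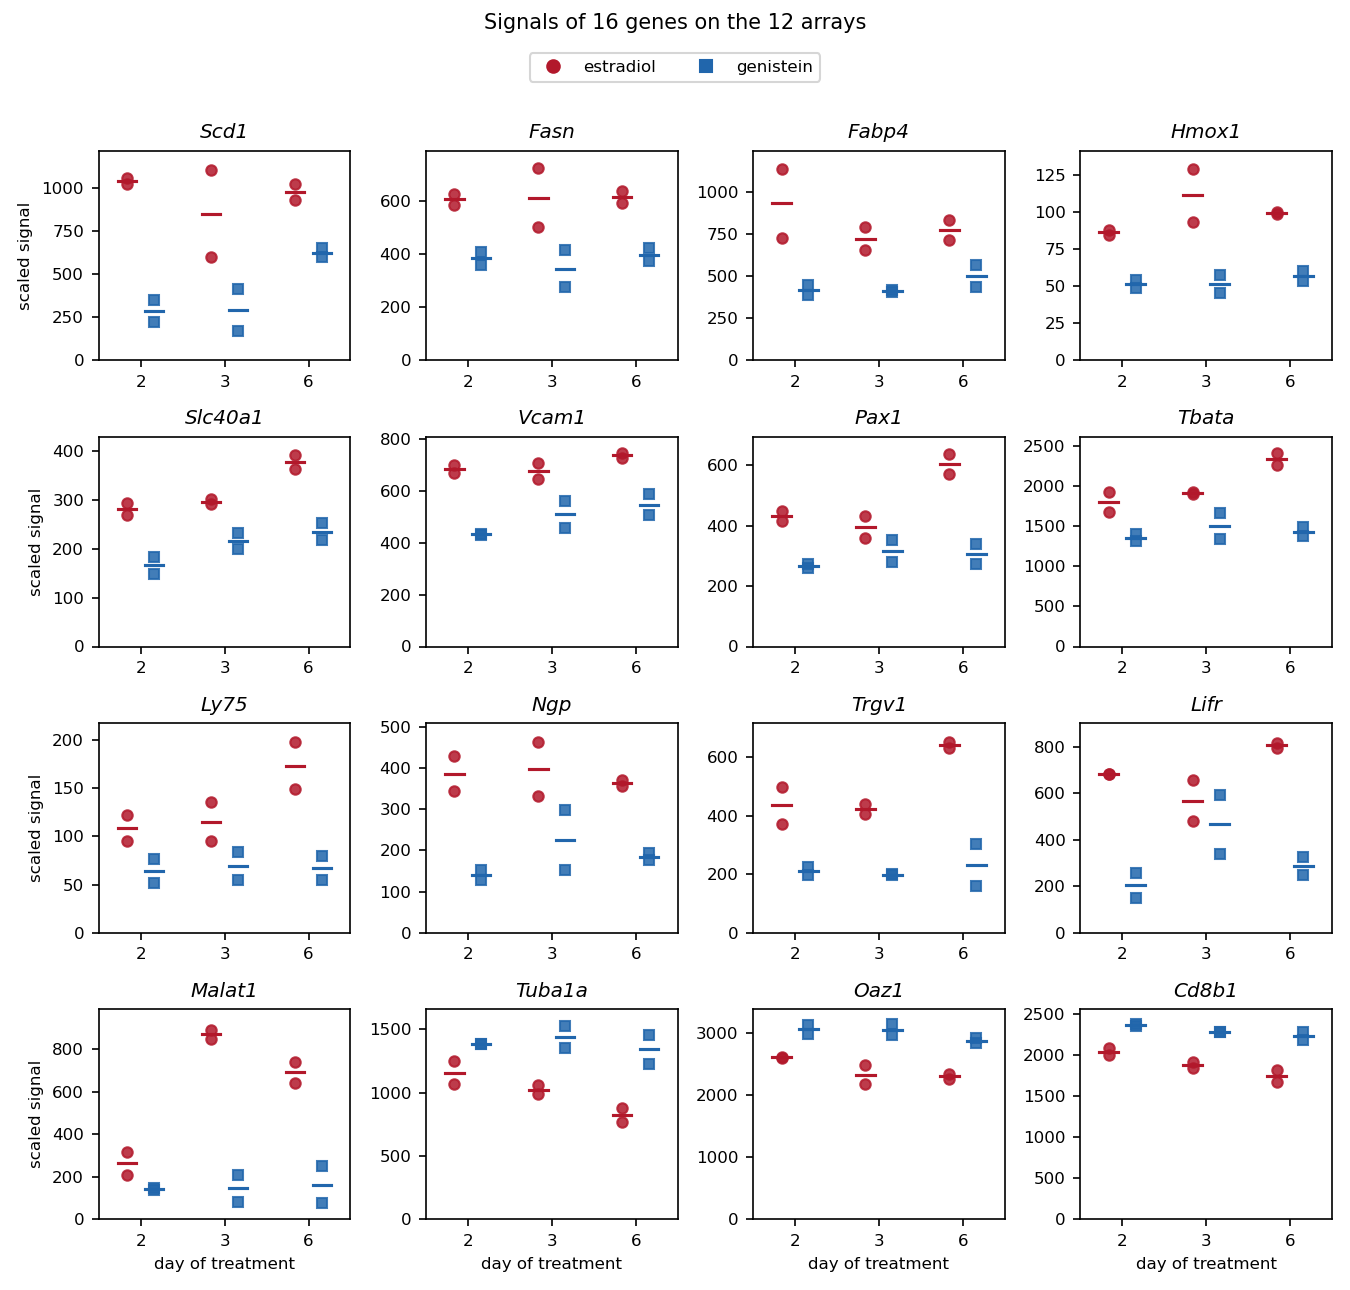
Signals of 16 genes on the 12 arrays, scaled to a common trimmed mean, by day of treatment, with estradiol arrays (circles) left of genistein arrays (squares) and a bar at the mean of the 2 arrays. The estradiol arrays lie above the genistein arrays of the same day in the first 13 panels, except for Lifr on day 3, where they overlap, and below them for Tuba1a, Oaz1 and Cd8b1.

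Among lipid genes, Scd1 and Fasn, 2 of 15 measured genes of sterol sensing and fatty acid synthesis, rose with estradiol, as did 4 of 11 adipocyte markers. Scd1, which puts the double bond into stearic acid, had signals of 596, 1021 and 1099 with estradiol and 170.0, 380.2 and 650.3 with genistein. The ranges met only through the weakest estradiol array, on day 3, and the genistein arrays of day 6. Scd1 rose by 1.34 ± 0.20 (adjusted p = 0.00593), and by day the difference was 1.83 on day 2, 1.55 on day 3 and 0.63 on day 6. A second, dimmer Scd1 probe set rose too, by 0.84 ± 0.15 (adjusted p = 0.0161). Fasn, the enzyme that builds palmitate, had 501, 611 and 724 with estradiol and 274, 390.4 and 424 with genistein, so that all estradiol arrays lay above all genistein arrays. Fasn rose by 0.69 ± 0.12 (adjusted p = 0.0137).

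Of the 15 genes of sterol sensing and fatty acid synthesis, 10 had a positive difference, and the list's median was 0.05, against -0.01 over all 8217 genes, of which 47.2% were positive. Srebf1, the transcription factor that drives this pathway, differed by -0.12 ± 0.10 (adjusted p = 0.572), and Acly, which supplies acetyl-CoA, by 0.05 ± 0.084 (adjusted p = 0.775). Of 7 genes of cholesterol efflux and liver X receptor targets, Abca1 and Pltp rose. Abca1, the pump that loads cholesterol onto apolipoprotein A1, had 358, 507 and 579 with estradiol and 241, 344 and 430.1 with genistein, with overlap between treatments. It rose by 0.55 ± 0.091 (adjusted p = 0.0112), while a dimmer Abca1 probe set differed by 0.24 ± 0.17 (adjusted p = 0.483). Pltp, which moves phospholipids between lipoproteins, had 801, 999.6 and 1249 with estradiol and 578, 731 and 793 with genistein, without overlap, and rose by 0.53 ± 0.099 (adjusted p = 0.0216). Of 15 measured enzymes of cholesterol synthesis 0 were called by limma, 3 had an unadjusted p under 0.05, 12 were lower with estradiol, and the median was -0.19. Sqle, squalene epoxidase, had 144, 167 and 186 with estradiol and 194, 207 and 257 with genistein, and its lack of overlap went with a difference of -0.36 ± 0.095 (adjusted p = 0.0803). Fdps, which makes farnesyl pyrophosphate, differed by -0.41 ± 0.095 (adjusted p = 0.0515).

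The promoters of Fasn and Abca1 are shown because both genes rose and are textbook targets of sterol-responsive factors. Each is a RefSeq window of 250 bases before to 50 after the gene's start in GRCm38.p6, Fasn at chr11:120824498-120824797 and Abca1 at chr4:53159846-53160145, both on the minus strand. Capitals mark matches, on either strand, to the CCAAT box (CCAAT), the E box (CACGTG) and the GC box (GGGCGG).
Fasn: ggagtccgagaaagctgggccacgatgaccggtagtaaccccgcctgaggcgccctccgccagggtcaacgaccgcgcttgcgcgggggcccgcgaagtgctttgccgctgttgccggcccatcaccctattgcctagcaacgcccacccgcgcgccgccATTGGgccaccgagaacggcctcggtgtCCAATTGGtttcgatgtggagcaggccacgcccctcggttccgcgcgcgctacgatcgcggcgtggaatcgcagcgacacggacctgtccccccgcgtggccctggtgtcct
Abca1: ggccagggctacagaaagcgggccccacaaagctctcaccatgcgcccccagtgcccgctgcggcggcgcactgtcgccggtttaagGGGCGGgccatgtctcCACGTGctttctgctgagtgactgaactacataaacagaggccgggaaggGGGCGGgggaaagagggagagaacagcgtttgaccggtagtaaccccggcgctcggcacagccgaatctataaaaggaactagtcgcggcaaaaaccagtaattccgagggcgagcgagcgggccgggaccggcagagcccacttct
The Fasn window held 3 matches to the CCAAT box, of which 2 overlap on opposite strands. The Abca1 window held 1 E box and 2 GC boxes. Neither held the letters searched as a sterol response element (TCACNCCAC) or the palindromic estrogen response element. Of 101 genes that rose 76 had a RefSeq window, and of 23 that fell 16 had one. The estrogen response element was in 0 of the 76, 0 of the 16 and 23 of all 32851 windows (0.07%). The sterol response element was in 2 of the 76 (Hsp90b1 and Malat1) and in 1.24% of all windows. The E box was in 6 of the 76 and 3 of the 16, against 7.15% of all windows. The CCAAT box was in 35 and 7 against 37.4%, and the GC box in 53 and 8 against 35.7%. A gene was counted if any of its windows matched, while the shares of all are per window, so these are unlike measures. The windows were searched for letters alone, and the set that rose was limited to genes bright enough to test.

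Fabp4, the fatty acid carrier of fat cells, had 657, 759 and 1139 with estradiol and 389.9, 427 and 567 with genistein. All estradiol arrays lay above all genistein arrays, with replicate 1 of day 2 the highest. Fabp4 rose by 0.83 ± 0.12 (adjusted p = 0.00466). Lpl, the lipase that frees fatty acids from lipoproteins, had 409, 531 and 706 with estradiol and 266, 293 and 453 with genistein and rose by 0.70 ± 0.11 (adjusted p = 0.00846), with differences of 1.10 on day 2, 0.69 on day 3 and 0.30 on day 6. Cd36, a fatty acid receptor that macrophages and vessels also carry, rose by 0.64 ± 0.14 (adjusted p = 0.0425), and Cebpa, a transcription factor of fat and myeloid cells, by 0.60 ± 0.099 (adjusted p = 0.0114). Dimmer probe sets of Fabp4, Lpl and Cd36 differed by 0.64 ± 0.17, 0.49 ± 0.13 and 0.49 ± 0.13 and did not pass (adjusted p = 0.0711 to 0.0811).

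Of 11 measured adipocyte markers these 4 rose, against 1.23% of all genes, 10 were positive and the median was 0.60, with 0.71, 0.50 and 0.30 on days 2, 3 and 6. Adipoq, a hormone of fat cells, had 54.8, 115 and 182 with estradiol and 20.3, 60.2 and 108 with genistein, which overlapped, and its difference of 0.82 ± 0.20 (adjusted p = 0.0607) did not pass. The summed signal of the 11 markers ran from 2294 to 3529 with estradiol and 1529.9 to 2488 with genistein. Pparg, Plin4 and Cidec were too dim to test. The amount of fat in each pool was not measured here, and its part in the lipid genes was not tested. In pooled tissue RNA, a change in the number of cells of a type and a change in RNA per cell cannot be told apart, here or for the cell types below.

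**Figure D3:**
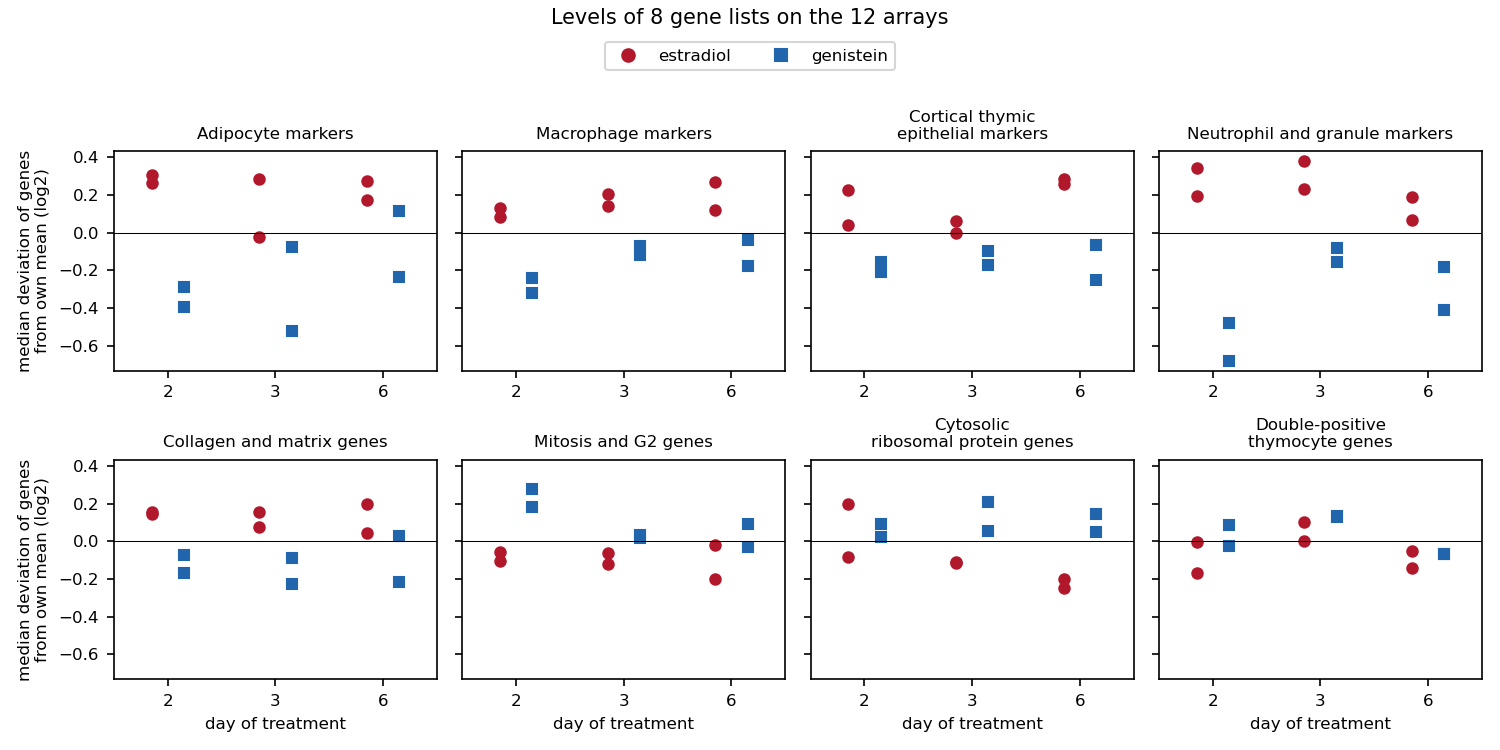
Level of 8 gene lists on each array, as the median over the list's genes of the deviation from the gene's mean over the 12 arrays (vertical, log2), by day, estradiol arrays (circles) left of genistein arrays (squares). Both estradiol arrays lie above both genistein arrays on each day for adipocyte, macrophage, cortical epithelial, neutrophil and matrix genes, and the treatments overlap on some day for the other 3 lists.

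Of 14 measured markers of the cortical epithelium, the cells that support early thymocytes and positive selection, 4 rose, against 1.23% of all genes. All 14 had a positive difference, and the median was 0.25, with 0.26, 0.15 and 0.44 on days 2, 3 and 6. Tbata, a protein of thymic epithelium, had 1679, 1927 and 2412 with estradiol and 1312, 1388 and 1660.5 with genistein, without overlap, and rose by 0.49 ± 0.076 (adjusted p = 0.00846). A pair of further bright Tbata probe sets differed by 0.42 ± 0.11 and 0.41 ± 0.098, which did not pass (adjusted p = 0.085 and 0.0561). A dim Tbata probe set differed by 0.09 ± 0.15 (adjusted p = 0.802). Pax1, a transcription factor needed for thymus formation, had 359, 439 and 635 with estradiol and 260.5, 277 and 353 with genistein, again without overlap. It rose by 0.64 ± 0.094 (adjusted p = 0.00593), with differences of 0.66 on day 2, 0.31 on day 3 and 0.95 on day 6. Enpep, the aminopeptidase that marks cortical epithelium as Ly51, had 299.9, 346 and 483 with estradiol and 141, 234 and 305 with genistein, and genistein replicate 2 of day 6 passed the weakest estradiol array. Enpep rose by 0.66 ± 0.11 (adjusted p = 0.01). Ly75, an endocytic receptor of cortical epithelium and dendritic cells, had 95.3, 129 and 198 with estradiol and 51.2, 65.6 and 84.1 with genistein, without overlap, and rose by 0.82 ± 0.14 (adjusted p = 0.0161). Foxn1, the master regulator of thymic epithelium, differed by 0.17 ± 0.15 (adjusted p = 0.598). Ccl25, the chemokine that draws progenitors to the thymus, differed by 0.23 ± 0.071 (adjusted p = 0.121). The summed signal of the 14 genes was 14333 to 17191 with estradiol and 12922 to 14028 with genistein.

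Medullary epithelial markers, from the cells that present tissue antigens, gave a mixed picture. Trp63, the p63 factor of epithelial stem cells, was the 1 of 12 that rose. It had 155, 186 and 239 with estradiol and 101, 115 and 150.1 with genistein, without overlap, and a difference of 0.62 ± 0.10 (adjusted p = 0.0102). The list's median was 0.10, 8 of 12 genes were positive, and Aire, which drives tissue antigen expression, differed by 0.09 ± 0.11 (adjusted p = 0.698). Among 20 measured collagen and matrix genes 3 rose, against 1.23% of all genes, 17 were positive and the median was 0.28. Fn1, fibronectin, had 324, 400.2 and 482 with estradiol and 173, 278 and 336 with genistein and rose by 0.55 ± 0.098 (adjusted p = 0.0161), with 1.14 on day 6 and 0.16 on day 3. Dcn, the small proteoglycan decorin, rose by 0.56 ± 0.12 (adjusted p = 0.0417), and Col6a1, a collagen VI chain, by 0.45 ± 0.093 (adjusted p = 0.0337). Endothelial markers (9 measured) and smooth muscle markers (8) had medians of -0.02 and -0.01, with 0 called by limma and 1 in each list at an unadjusted p under 0.05.

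Of 18 measured macrophage markers 5 rose, against 1.23% of all genes, and 17 had a positive difference, against 47.2%. Hmox1, heme oxygenase, which breaks down heme, had 84.5, 96 and 129 with estradiol and 45.6, 53.6 and 60.1 with genistein. The treatments did not overlap, and Hmox1 rose by 0.73 ± 0.11 (adjusted p = 0.00562). Slc40a1, ferroportin, the exporter of iron, had 270.2, 297 and 393 with estradiol and 149, 208 and 254 with genistein, also without overlap, and rose by 0.60 ± 0.088 (adjusted p = 0.00593). A dimmer Slc40a1 probe set differed by 0.38 ± 0.11 and did not pass (adjusted p = 0.109). Vcam1, an adhesion molecule of resident macrophages and stroma, had 648, 706 and 748 with estradiol and 431, 483 and 587 with genistein and rose by 0.49 ± 0.081 (adjusted p = 0.0112), but its other 2 probe sets differed by 0.13 ± 0.12 and 0.29 ± 0.29 (adjusted p = 0.609 and 0.624). Mertk, a receptor for dying cells, rose by 0.53 ± 0.11 (adjusted p = 0.0406), and Mrc1, the mannose receptor, by 0.44 ± 0.081 (adjusted p = 0.0184). Other macrophage genes did not pass: Adgre1, the F4/80 antigen, differed by 0.01 ± 0.097 (adjusted p = 0.973), Cd68 by 0.11 ± 0.086 (adjusted p = 0.518) and Csf1r by 0.32 ± 0.078 (adjusted p = 0.0634). The list's median was 0.27, and its summed signal ran from 6382 to 7288 with estradiol and 4849.5 to 6198 with genistein. Of 11 dendritic cell markers and 9 MHC class II genes limma called 0, with 3 of each at an unadjusted p under 0.05 and medians of 0.02 and 0.18.

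Of 9 measured neutrophil and granule genes 5 rose, against 1.23% of all genes. Ngp, the neutrophil granule protein, had 332, 363 and 463 with estradiol and 128, 165 and 298 with genistein, without overlap, and rose by 1.04 ± 0.15 (adjusted p = 0.00466). S100a9 and S100a8 form the calprotectin dimer. S100a9 had 244, 310.0 and 436 with estradiol and 95.1, 157 and 203 with genistein, without overlap, and rose by 0.98 ± 0.14 (adjusted p = 0.00514). S100a8 rose by 0.95 ± 0.15 (adjusted p = 0.00889), with overlap through replicate 1 of genistein day 3. Lcn2, which binds iron carriers of bacteria, rose by 0.63 ± 0.13 (adjusted p = 0.0299), and Ltf, lactoferrin, by 0.49 ± 0.10 (adjusted p = 0.0335). Csf3r, the receptor for granulocyte growth factor, differed by 0.23 ± 0.13 (adjusted p = 0.365) and Mpo, myeloperoxidase, by 0.21 ± 0.12 (adjusted p = 0.373). The list's median was 0.49, with 0.77, 0.23 and 0.40 on days 2, 3 and 6, and its summed signal was 1549 to 2172 with estradiol and 799.6 to 1442 with genistein. The part of blood left in the tissue was not tested. Of the list of red blood cell genes only 2, Alas2 and Tfrc, were bright enough. They differed by 0.31 and -0.17, did not pass and do not measure the blood in a pool.

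Trgv1, a variable segment of the γ chain of the T cell receptor, was the 1 γ chain gene on the lists that was measured. Its probe set had 373, 471 and 653 with estradiol and 160.2, 199 and 306 with genistein. All estradiol arrays lay above all genistein arrays, and the day 6 pair was the highest. Trgv1 rose by 1.16 ± 0.13 (adjusted p = 0.00157). Variable gene segments of a family are similar in sequence, so a signal from its relatives in this probe set cannot be told apart. Cd7, a surface protein of early T and NK cells, had 32.6, 110.5 and 137 with estradiol and 5.9, 26.4 and 101 with genistein and rose by 1.35 ± 0.26 (adjusted p = 0.0235), with overlap on day 3. These were the 2 of 5 genes on the γδ list that passed, against 1.23% of all genes higher. The list's median was 0.13, and Sox13, a γδ lineage factor, differed by 0.13 ± 0.12 (adjusted p = 0.601). Of 10 NK and innate-like genes limma called 0, with 5 at an unadjusted p under 0.05 and a median of 0.25.

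Immunoglobulin genes moved both ways. Iglv1, a λ light chain segment, had 59.3, 116 and 239.9 with estradiol and 43.4, 64.7 and 80.4 with genistein and rose by 0.89 ± 0.12 (adjusted p = 0.00362), with 0.94 on day 2, 0.28 on day 3 and 1.44 on day 6. Igha, the IgA heavy chain, had 111, 214 and 277 with estradiol and 246, 308 and 546 with genistein and fell by 0.69 ± 0.16 (adjusted p = 0.049), with -1.43 on day 6. By quantile normalization the difference of Igha was -0.71 (adjusted p = 0.0429). Dimmer Igha probe sets differed by -0.58 ± 0.18 and -0.65 ± 0.15 and did not pass (adjusted p = 0.123 and 0.0503). Counting each gene by its brightest probe set, Iglv1 was the 1 of 10 B and plasma cell markers called. For Ighm, the IgM heavy chain, the brightest probe set differed by 0.21 ± 0.092 (adjusted p = 0.244), and of 4 dimmer ones a pair rose, by 0.99 ± 0.12 (adjusted p = 0.00178) and 0.73 ± 0.12 (adjusted p = 0.00889). Cd79a and Ms4a1, of B cells, differed by 0.11 and -0.13. Lifr, the receptor for leukemia inhibitory factor, a cytokine that can act on thymic stroma, had 480.0, 683 and 817 with estradiol and 151, 292 and 591 with genistein. The treatments were far apart on days 2 and 6 and met on day 3. Lifr rose by 1.16 ± 0.15 (adjusted p = 0.0032) over the mean of days, although its arrays overlapped on day 3.

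The largest rise of a brightest probe set was that of Malat1, a long noncoding RNA kept in the nucleus. It had 209, 691 and 891 with estradiol and 75.1, 143 and 248 with genistein. Estradiol arrays were far above genistein arrays on days 3 and 6, and less so on day 2. Malat1 rose by 1.85 ± 0.24 (adjusted p = 0.00305), with 0.78 on day 2, 2.58 on day 3 and 2.18 on day 6. Its 4 other probe sets also had positive differences, of 0.44 to 1.35, and did not pass (adjusted p = 0.0926 to 0.198). Neat1, another nuclear noncoding RNA, differed by 0.34 ± 0.17 (adjusted p = 0.324), and Malat1 was the 1 of 11 nuclear-retained transcripts that passed. Retnla, a secreted product of alternatively activated macrophages and other cells, had 125, 208 and 328 with estradiol and 76.2, 84.2 and 125 with genistein and rose by 1.04 ± 0.12 (adjusted p = 0.00157). Ccl6, a chemokine of myeloid cells, was dim, with 49, 76.4 and 155 with estradiol and 8.5, 25.4 and 53.1 with genistein, and rose by 1.24 ± 0.23 (adjusted p = 0.0184). Igfbp7, a secreted binder of growth factors made by vessels and stroma, had 303, 345 and 432 with estradiol and 131, 184 and 223 with genistein, without overlap, and rose by 0.88 ± 0.12 (adjusted p = 0.00305).

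Further rises chosen by the same rule were of other kinds. Cmah, which makes a sialic acid form, rose by 0.87 ± 0.12 (adjusted p = 0.0042), while its second probe set differed by 0.26 ± 0.12 (adjusted p = 0.28). Ahnak, a giant scaffold protein, rose by 0.85 ± 0.15 (adjusted p = 0.0149), and Sgpl1, which degrades sphingosine-1-phosphate and so sets the gradient by which T cells leave the thymus, by 0.83 ± 0.11 (adjusted p = 0.00305). Sgpl1 had 259, 413 and 468 with estradiol and 195, 202 and 277 with genistein, and 1 genistein array of day 6 passed the weakest estradiol array. A dimmer Sgpl1 probe set differed by 0.41 ± 0.22 (adjusted p = 0.337). Rassf1, a tumour suppressor, rose by 0.83 ± 0.11 (adjusted p = 0.00305), Khdc1a by 0.84 ± 0.14 (adjusted p = 0.0109) and the transcript listed as C77080 by 0.96 ± 0.11 (adjusted p = 0.00157).

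By their brightest probe sets, thymocyte genes differed little. Cd4 and Cd8a, the coreceptors, differed by 0.06 ± 0.15 (adjusted p = 0.867) and -0.12 ± 0.071 (adjusted p = 0.371). Cd8b1, the β chain of CD8, had 1668, 1874 and 2077 with estradiol and 2181, 2280.4 and 2372 with genistein, with all estradiol arrays below all genistein arrays. It fell by 0.28 ± 0.062 (adjusted p = 0.0425), which is 0.821 of the genistein level. After quantile normalization the difference was -0.17 (adjusted p = 0.146). It was the 1 of 14 double-positive thymocyte genes called, against 0.28% of all genes lower. The list's median was -0.08. A dimmer probe set of Ccr9, a gene of this list, was called lower, by 0.45 ± 0.080 (adjusted p = 0.0169), as given under other observations. Dimmer probe sets of other genes of the list differed by -0.42 (Dntt) to 0.29 (Cd4) and were not called. Of 14 T cell receptor and signalling genes limma called 0, with 4 at an unadjusted p under 0.05, 12 were lower with estradiol and the median was -0.14. Early thymocyte genes leaned the other way, with 13 of 16 positive, 0 called and a median of 0.23. At an unadjusted p under 0.05, 6 of them were higher and 1 lower.

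Most genes of cell division had small negative differences that did not pass. Of 25 mitosis and G2 genes 22 were negative, with a median of -0.16 and -0.29, -0.13 and -0.10 on days 2, 3 and 6. None of the 25 was called by limma, and 10 were lower at an unadjusted p under 0.05, against 723 of all 8217 genes. Cdk1, the mitotic kinase, had 559.8, 619.9 and 699.6 with estradiol and 722, 754 and 916 with genistein, without overlap, and a difference of -0.33 ± 0.079 (adjusted p = 0.0597). Aurka, a spindle kinase, differed by -0.38 ± 0.094 (adjusted p = 0.0648), and Cenpa, the centromere histone, by -0.39 ± 0.10 (adjusted p = 0.0781). Of 25 DNA replication genes 19 were negative, with a median of -0.10 and 0 called. At an unadjusted p under 0.05, 1 of them was higher and 3 lower.

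Of the 11 falls that were separated on each day, several were bright housekeeping genes. Tuba1a, an α-tubulin, had 771, 1024 and 1247 with estradiol and 1230.1, 1384 and 1527 with genistein and fell by 0.48 ± 0.079 (adjusted p = 0.0114), and by quantile normalization its difference was -0.42 (adjusted p = 0.0115). Oaz1, which limits polyamine synthesis, had 2181, 2421 and 2627 with estradiol and 2845, 2984 and 3149 with genistein, without overlap, and fell by 0.31 ± 0.063 (adjusted p = 0.0295). By quantile normalization the difference of Oaz1 was -0.17 (adjusted p = 0.164) and that of Sash3, a lymphocyte adaptor, -0.25 (adjusted p = 0.127), against -0.34 as scaled here. Psma7, a proteasome subunit, fell by 0.48 ± 0.10 (adjusted p = 0.0406), but its second probe set, of like signal, differed by -0.01 ± 0.11 (adjusted p = 0.982). Fmr1, the fragile X protein gene, fell by 0.49 ± 0.11 (adjusted p = 0.049), and 2 further probe sets differed by 0.14 ± 0.13 and -0.01 ± 0.091. Atp5c1, of the ATP synthase, fell by 0.39 ± 0.077, the kinase Tnk2 by 0.56 ± 0.11, the membrane protein Tmem37 by 0.55 ± 0.096 and the centrosome protein Cntrob by 0.53 ± 0.092 (adjusted p = 0.0149 to 0.0286). A dimmer probe set of Atp5c1 differed by 0.05 ± 0.10 (adjusted p = 0.844) and a dimmer probe set of Tnk2 by -0.41 ± 0.13 (adjusted p = 0.1145). By quantile normalization the differences of Psma7, Fmr1, Atp5c1, Tnk2, Tmem37 and Cntrob were -0.49, -0.51, -0.31, -0.54, -0.56 and -0.55 (adjusted p = 0.0127 to 0.048). Of 15 ribosomal protein genes 14 were negative and 1, Rps6, was called, by -0.48 ± 0.10 (adjusted p = 0.0425), or -0.51 by quantile normalization (adjusted p = 0.0406). Their median was -0.19, close to the -0.19 of the bright probe sets at large, with 0.03, -0.26 and -0.33 on days 2, 3 and 6. Of 20 oxidative phosphorylation genes 0 were called, 4 had an unadjusted p under 0.05 and the median was -0.10.

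**Figure D4:**
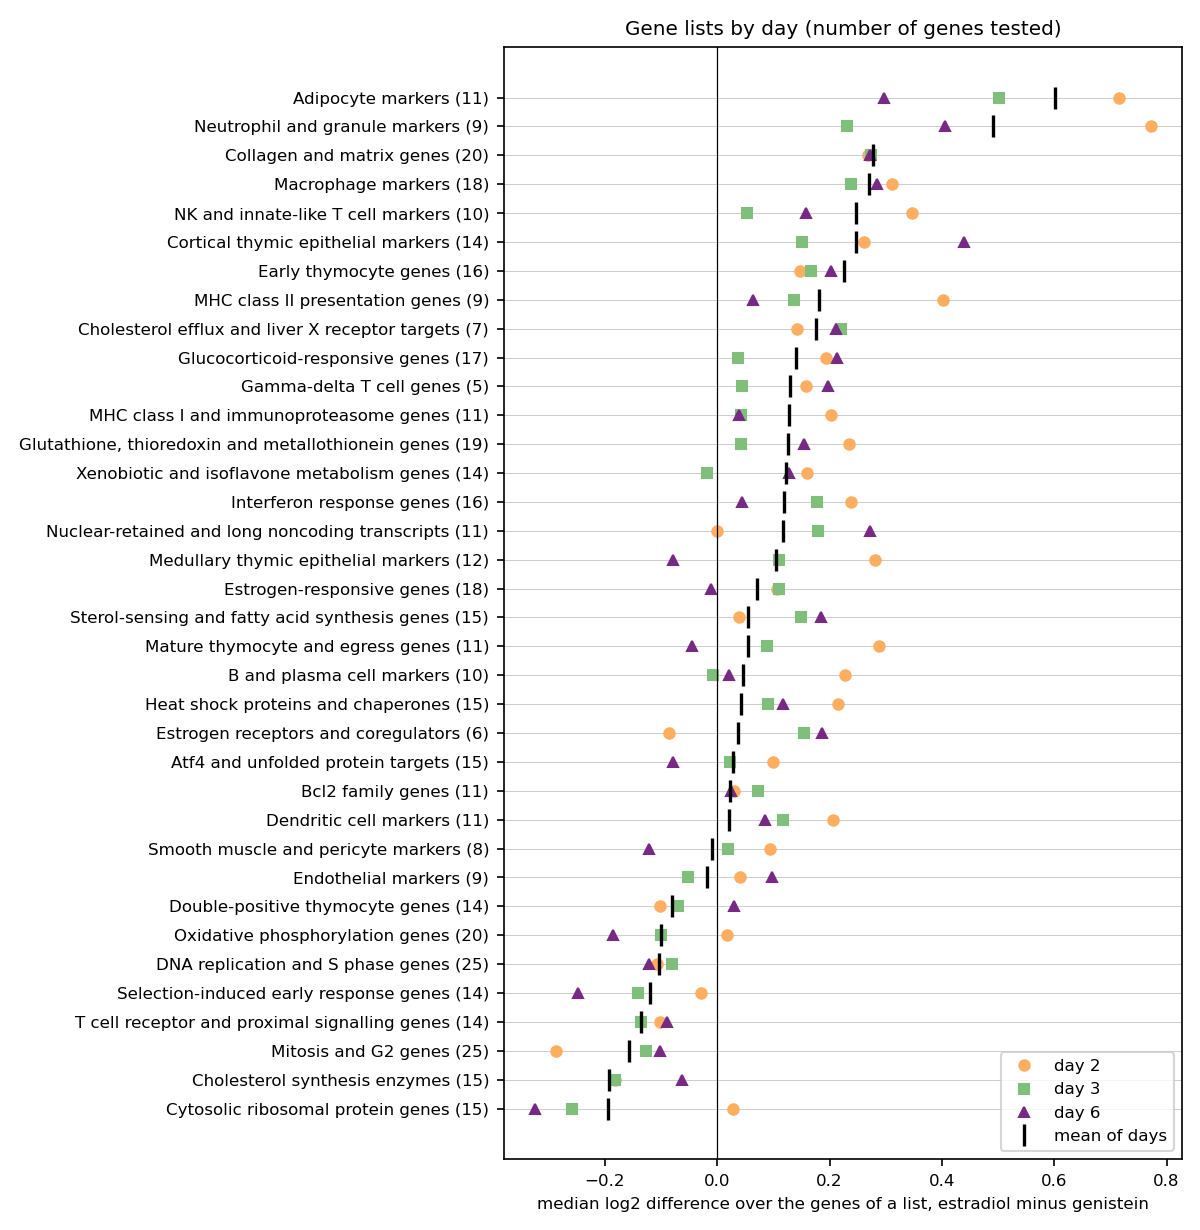
Median log2 difference, estradiol minus genistein, over the genes of 36 lists with 5 or more genes tested, on day 2 (circles), day 3 (squares), day 6 (triangles) and over the mean of days (bars). Adipocyte markers (0.60) and neutrophil genes (0.49) have the highest medians over the mean of days, and ribosomal protein genes (-0.19) and cholesterol synthesis enzymes (-0.19) the lowest.

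Of 18 measured genes known to answer to estrogen, largely in uterus and breast, Ltf was called, 11 were positive and the median was 0.07. Cyp1b1, which hydroxylates estradiol, had 103, 127 and 164 with estradiol and 55.1, 84 and 134 with genistein and differed by 0.50 ± 0.12 (adjusted p = 0.052). Igf1, a growth factor, differed by 0.21 ± 0.098 (adjusted p = 0.263) and Myc by 0.13 ± 0.085 (adjusted p = 0.43). Of 6 receptors and coregulators bright enough to test limma called 0, with 1 at an unadjusted p under 0.05. Of 17 glucocorticoid-responsive genes Mt2 rose, 15 were positive, 5 had an unadjusted p under 0.05 and the median was 0.14. Mt2, a metallothionein induced by metals and stress hormones, had 223, 258 and 350.3 with estradiol and 144, 166 and 199.9 with genistein, without overlap, and rose by 0.60 ± 0.11 (adjusted p = 0.0216). Fkbp5 and Tsc22d3, both direct glucocorticoid receptor targets, differed by 0.02 ± 0.10 (adjusted p = 0.941) and -0.04 ± 0.12 (adjusted p = 0.878). Of 14 xenobiotic genes Hmox1 was called, and of 15 chaperones Hsp90b1, of the endoplasmic reticulum, by 0.40 ± 0.082 (adjusted p = 0.0337). A dimmer Hsp90b1 probe set differed by 0.38 ± 0.12 (adjusted p = 0.112). Interferon response genes had 14 of 16 positive, a median of 0.12, 0 called and 3 at an unadjusted p under 0.05.

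Single days gave few calls. On day 2, 8 of 13575 probe sets (0.0589%) were higher with estradiol and 0 lower, all 8 also called over the mean of days. Lifr had signals of 681 and 684 with estradiol and 151 and 258 with genistein, a rise of 1.71 ± 0.27 (adjusted p = 0.0465). Retnla had 328 and 245 with estradiol and 76.2 and 83.8 with genistein, a rise of 1.64 ± 0.21 (adjusted p = 0.0157). C77080 rose by 1.32 ± 0.19 (adjusted p = 0.0252) and Cbr2, a carbonyl reductase, by 1.02 ± 0.14 (adjusted p = 0.0208). On day 3, 1 probe set (0.00737%) was called, a dim one of Nktr. The smallest p of the brightest probe sets were those of Malat1, Zdhhc6, Ctss, Cmah and Gm6958, none of them past the threshold. Malat1 on day 3 had 891 and 850.4 with estradiol and 82.8 and 206 with genistein, a difference of 2.58 ± 0.42 (adjusted p = 0.141). Ctss, the protease cathepsin S, had 587 and 528 with estradiol and 1025 and 854 with genistein, a difference of -0.73 ± 0.14 (adjusted p = 0.23).

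On day 6, 45 probe sets (0.331%) were called, 40 higher (0.295%) and 5 lower (0.0368%), and 39 of the 45 were also called over the mean of days. With the Gapdh ratio of each array as a covariate, 0 were called on day 6. The part of RNA integrity in the day 6 differences was not tested further. Shisa2 had 92.1 and 115 with estradiol and 23.4 and 30.8 with genistein, a rise of 1.47 ± 0.25 (adjusted p = 0.0433). Trgv1 had 634 and 653 with estradiol and 160.2 and 306 with genistein, a rise of 1.47 ± 0.23 (adjusted p = 0.0311). Iglv1 had 239.9 and 218 with estradiol and 80.4 and 68.2 with genistein, a rise of 1.44 ± 0.21 (adjusted p = 0.0219). Lifr and C77080 rose again, by 1.45 ± 0.27 (adjusted p = 0.0461) and 1.28 ± 0.19 (adjusted p = 0.0219). Nol12, a nucleolar protein, had 23.5 and 24.5 with estradiol and 169 and 108 with genistein, and differed by -1.92 ± 0.36 (adjusted p = 0.0461), a fall. Igha and Cbln1 fell on this day too, with differences of -1.43 ± 0.27 (adjusted p = 0.0491) and -1.37 ± 0.25 (adjusted p = 0.0461).

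No probe set passed the F test of whether the difference changed with day (0% of 13575, with 670 at an unadjusted p under 0.05), so a call on one day and not on another is not shown to differ between days. The smallest adjusted p was 0.0878, of Plvap, a protein of vessel diaphragms. Plvap had 122 and 103 with estradiol and 42.7 and 49.2 with genistein on day 2, 30.4 and 27.5 with estradiol and 64.4 and 66.6 with genistein on day 3 and 89 and 118 with estradiol and 43.4 and 45.5 with genistein on day 6. Estradiol arrays were above genistein arrays on days 2 and 6 and below them on day 3. The estradiol arrays of day 3 were deposited at another scale, as was replicate 2 of estradiol day 2, which had 103. The part of that scale in the Plvap values was not tested. The next smallest p were those of Ctss (0.52 on day 2, -0.73 on day 3 and -0.18 on day 6), Gm6958, Gtpbp6, Gid4, H1f2, Tmem266 and Pik3r2. Their adjusted p were 0.569 to 0.956.

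The number of calls was lower without the 3 estradiol arrays deposited at another scale, and also without some single arrays at the common scale. Without these 3 arrays 47 probe sets were called, 33 of them among the 203, and day 3 then had no estradiol array. With day 3 left out on both sides 49 were called, and without estradiol day 6 replicate 2 alone 66. Without the 3 arrays, 198 of the 203 called probe sets were still measured and all 198 kept their direction. They had been called on data that include the remaining arrays, so their kept direction is no independent check. With the deposited scale as a term in the fit 35 were called, and 203 of 203 kept their direction, again on the arrays that gave the calls. Both estradiol day 3 arrays carry that term, so it was estimated only from the 2 replicates of estradiol day 2. It cannot separate scale from other differences between those 2 pools. Of the genes above, 9 that passed without the 3 arrays were Fabp4, Lpl, Ngp, S100a8, S100a9, Pax1, Tbata, Trgv1 and Retnla. Their differences were 1.02, 0.82, 1.22, 1.38, 1.15, 0.83, 0.60, 1.12 and 1.37, with adjusted p of 0.0135 to 0.0403. Scd1, Fasn, Hmox1, Slc40a1 and Malat1 then had differences of 1.24, 0.65, 0.62, 0.71 and 1.63 and did not pass (adjusted p = 0.0559 to 0.126). Of 60 called genes followed, 17 passed without the 3 arrays and 9 with the scale term. With that term Fabp4, Lpl, S100a8, S100a9 and Retnla had differences of 1.15, 0.94, 1.29, 1.21 and 1.24 (adjusted p = 0.0218 to 0.0483). Ngp, Pax1, Tbata, Trgv1, Scd1, Fasn, Hmox1, Slc40a1 and Malat1 did not pass with it (adjusted p = 0.0525 to 0.118), with differences of 1.19, 0.69, 0.59, 0.96, 1.36, 0.73, 0.70, 0.66 and 2.13. By list, without the 3 arrays 2 of 11 adipocyte markers rose, 2 of 14 cortical epithelial, 3 of 9 neutrophil, 0 of 18 macrophage and 0 of 20 matrix genes. The medians were then 0.64, 0.37, 0.59, 0.27 and 0.26 for these lists. With the scale term 2 adipocyte, 0 cortical epithelial, 2 neutrophil, 0 macrophage and 0 matrix genes rose, and the medians were 0.58, 0.40, 0.53, 0.29 and 0.25. The genes of sterol sensing and fatty acid synthesis had 0 of 15 called in either fit, and the γδ list 1 of 5 without the 3 arrays and 0 with the scale term.

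**Figure D5:**
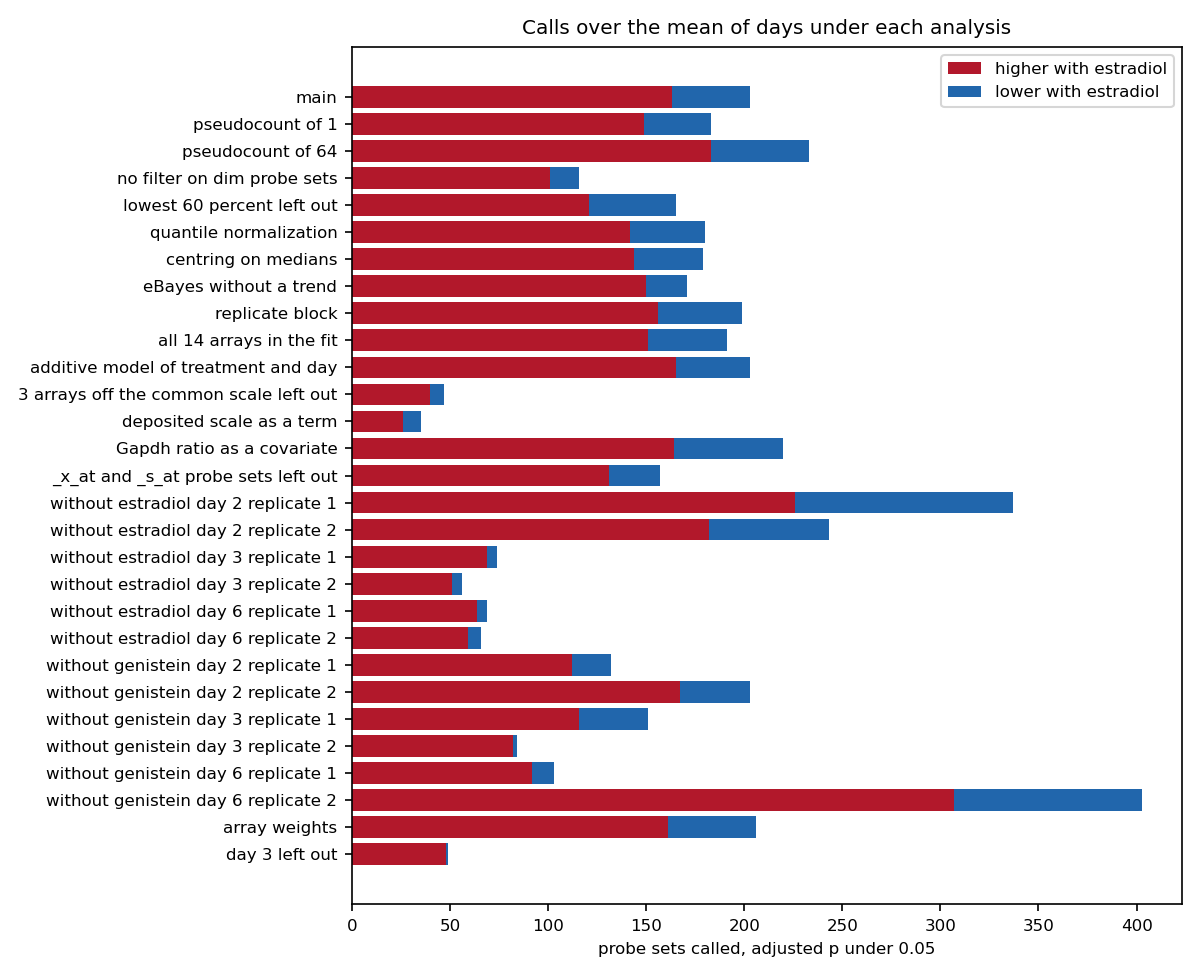
Number of probe sets called over the mean of days (horizontal), higher with estradiol (red) and lower with estradiol (blue), in the main analysis (top, 203) and under 28 alternatives, not counting the values as deposited. The number runs from 35 with the deposited scale as a term to 403 without replicate 2 of genistein day 6.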

How the data were processed

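The values are intensity signals of 1-colour Affymetrix arrays, deposited by the authors as 1 value per probe set. Per the submitters' processing notes they were made with MAS5 5.0. Detection calls were not used here. Groups, days and replicates come from the labels.

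Each array was multiplied to a 2%-trimmed mean of 150.04, which 9 of the 12 arrays already had. The 64 control probe sets were removed, 16 was added, log2 was taken and the lowest 40% by mean over the 12 arrays were left out, leaving 13575 probe sets. limma 3.58.1 in R 4.3.3 fitted 6 group means (lmFit), with contrasts over the mean of days and for each day and an F test of their change with day, eBayes with a trend (6 residual degrees of freedom, 12.64 after moderation) and Benjamini-Hochberg adjustment within each comparison over all probe sets. A call is an adjusted p under 0.05. The procedure was tested on simulated data. Of 22690 probe sets 20393 carried 1 gene symbol and 1606 none. A gene is represented by its probe set of highest mean, and 2823 genes had more than 1.

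Genes were named by a rule: over the mean of days the 15 largest rises and falls among called genes separated on each day, on single days the 5 largest, otherwise the smallest p, and called or most changed members of a described list. The comparison, the 38 gene lists, written from general knowledge, and the rule were chosen with earlier results of these data known. Alternatives were another pseudocount, filter, scaling, model or set of arrays, and 2 were chosen after seeing the data. Replicate numbers were checked for pairing: deviations of same-numbered arrays correlated at -0.257 to 0.353 over 15 pairs of groups, 5 of them over 0.1. These values do not settle whether the numbers pair the arrays, and the main fit did not pair them. Promoter windows are those of RefSeq in GRCm38.p6. Plots used python 3.11.15 with matplotlib 3.10.9.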

Additional observations from a re-analysis of the deposited data

How the results depend on the processing

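Limits are the 2 pools per group, the dependence of small differences on level, and dim signals, whose change the added 16 understates. Over the mean of days the 203 calls became 116 with no filter, 47 without the 3 rescaled arrays, 35 with their scale modelled, 49 with day 3 left out and 9184 (9182 higher, median of all probe sets 0.42) with the values as deposited. The other 12 planned or added alternatives gave 157 to 233. Leaving out 1 array gave 56 to 403. The count changed by over 1.5 times without estradiol day 3 replicate 2 (56) or 1 (74), estradiol day 6 replicate 2 (66) or 1 (69), genistein day 3 replicate 2 (84), genistein day 6 replicate 1 (103), genistein day 2 replicate 1 (132), estradiol day 2 replicate 1 (337) and genistein day 6 replicate 2 (403). The 8 calls of day 2 became 4 with a pseudocount of 64, 3 with no filter, 5 by quantile normalization, 4 by centring on medians, 45 as deposited, 0 without the 3 arrays, 29 (15 higher, 14 lower) with their scale modelled, 0 with array weights, 4 with day 3 left out and 1 to 29 without 1 array. The 1 call of day 3 became 2 with a pseudocount of 64, no filter, centring on medians or all 14 arrays, 0 with the lowest 60% left out, the scale modelled or the Gapdh ratio as a covariate, 13075 as deposited, 6 with array weights and 0 to 6 without 1 array. The 45 calls of day 6 became 22 with a pseudocount of 1, 8 with no filter, 27 with the lowest 60% left out, 24 by quantile normalization, 10 (8 higher, 2 lower) as deposited, 27 without a trend, 11 without the 3 arrays, 0 with the Gapdh ratio, 84 with array weights, 7 with day 3 left out and 2 to 97 without 1 array. The interaction had 0 calls, 1 without a trend, without the 3 arrays or with their scale modelled, 7547 as deposited and 0 to 1 without 1 array. With the replicate number as a block 199 probe sets were called over the mean of days and 19 on day 6, but whether the numbers pair the arrays was not settled. The cause of these changes was not tested. Of 60 called genes followed, 47 passed in at least 50% of the alternatives, 4 in all that measured them (Retnla, S100a9, S100a8 and C77080), and 17 without the 3 arrays. As deposited, falls turned into differences above 0 for Atp5c1 (0.063), Sash3 (0.11), Oaz1 (0.14) and Cd8b1 (0.17). So did the uncalled negative differences of Ctss (0.32), Cd8a (0.33), Id3 (0.34), Blk (0.37), Dntt (0.23), Cd3d (0.25), Nfkbia (0.25), Mcl1 (0.27), Pcna (0.23), Rpl10a (0.22), Rpl19 (0.22) and Rps3 (0.21).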

Other observations

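The genes in this part were chosen after their values were seen. Some of these genes act in lipid synthesis. Thrsp, known as Spot 14, a promoter of fatty acid synthesis, had signals of 129, 202 and 519.8 with estradiol and 37.3, 92.7 and 188 with genistein and rose by 1.21 ± 0.26 (adjusted p = 0.0438), with 1.90 on day 2, 1.51 on day 3 and 0.22 on day 6. Me1, on the list of fatty acid synthesis genes, makes NADPH for that synthesis and rose on a dim probe set, by 1.51 ± 0.14 (adjusted p = 0.000689), with 84.6, 117 and 144 with estradiol and 13.6, 32.7 and 50.2 with genistein. Its brightest probe set differed by 0.39 ± 0.11 (adjusted p = 0.0876). Gpd1, which makes the glycerol backbone of fats, rose on its dimmer probe set, by 1.04 ± 0.17 (adjusted p = 0.0114), and differed by 0.98 ± 0.28 (adjusted p = 0.0973) on the brighter one.

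Stromal signals of the thymus were also among the rises. Il7, the growth factor that epithelium supplies to early thymocytes, had 91.6, 144 and 176 with estradiol and 74.6, 86.4 and 112 with genistein and rose by 0.53 ± 0.10 (adjusted p = 0.0213), with -0.00 on day 2, 0.60 on day 3 and 1.01 on day 6. Slc46a2, the thymic stromal cotransporter, rose by 0.66 ± 0.11 (adjusted p = 0.0137), and Cdh1, E-cadherin, by 0.54 ± 0.12 (adjusted p = 0.0425). Gas6, a ligand of Mertk, rose by 0.56 ± 0.12 (adjusted p = 0.0458), and Osmr, the oncostatin M receptor, which shares the partner chain of Lifr, by 0.44 ± 0.086 (adjusted p = 0.0276). Il2ra, which marks early thymocytes before β-selection, rose on its dimmer probe set, by 0.94 ± 0.12 (adjusted p = 0.00219), and differed by 0.56 ± 0.16 (adjusted p = 0.095) on the brighter one. Ccr9, the receptor for Ccl25, fell on a dimmer probe set, with -0.45 ± 0.080 (adjusted p = 0.0169), and differed by -0.25 ± 0.070 (adjusted p = 0.0904) on the brightest. Another dimmer Ccr9 probe set differed by -0.41 ± 0.14 (adjusted p = 0.15).

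Probe sets of 1 gene disagreed in several calls. Zdhhc6, a palmitoyl transferase, had the largest negative difference called, -1.46 ± 0.24 (adjusted p = 0.0102), with 0.08 on day 2, -2.43 on day 3 and -2.03 on day 6. Its other probe set differed by 0.22 ± 0.18 (adjusted p = 0.545). For Nktr, a cyclophilin first known from NK cells, the dim probe set that gave the 1 call on day 3 differed over the mean of days by 1.24 ± 0.11 (adjusted p = 0.000689), while the brightest differed by 0.25 ± 0.10 (adjusted p = 0.227).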
